A study of Mus musculus with 3 samples.

Results

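Nonclassical MHC class I genes were followed in cells of mouse ear skin, measured by droplet single-cell RNA sequencing. The set is 10 named genes: H2-M2, H2-M3, H2-M5, H2-Q4, H2-Q6, H2-Q7, H2-T22, H2-T23, H2-T24 and Cd1d1. All 10 were present among the 31053 genes of the deposited matrices. Cells were assigned by raw UMIs (unique molecular identifiers, one per captured transcript molecule) of a few genes outside the set, so the levels of the set played no part in choosing cells. A Langerhans cell had at least 2 UMIs of Cd207 with at least 1 of Epcam. A gamma delta T cell had at least 1 UMI of Trdv4, a macrophage at least 5 of C1qa, C1qb and C1qc together, and a keratinocyte at least 0.3% of its UMIs from Krt5 and Krt14. A lymphatic endothelial cell had at least 2 UMIs of Prox1. A blood endothelial cell had at least 3 of Cdh5 and Ptprb together with Prox1 and Mmrn1 at 0, and a fibroblast had at least 2 of Dpt. Such a rule is called a gate in the plots.

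There were 3 libraries, 1 per condition. Young wild-type mice were 4 weeks old (5 males and 3 females), adult wild-type mice were 8 weeks old (6 males and 4 females), and adult Lang-DTA mice were 8 weeks old (4 males and 6 females). All were untreated. Langerin-DTA is a transgene in which human Langerin (CD207) sequence drives diphtheria toxin A, so that cells using it die. The wild-type animals are labelled both as C57BL/6J and as littermates from hemizygous Langerin-DTA males and wild-type females. Each library pooled the ears of all mice of its condition, digested with enzymes. Lymphatic endothelial, blood endothelial, CD45+ and CD45-CD31- cells were sorted and mixed in equal parts, so that cell numbers follow the sort and were not compared. With 1 library per condition no difference has a replicate check, and no p-value is given. Intervals are exact 95% intervals and cover counting error only, and age, genotype, sex balance and library preparation cannot be told apart within a comparison beyond what is stated beside each value.

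Class I molecules are cell-surface heavy chains that pair with beta-2 microglobulin, the product of B2m, and show peptides or lipids to T cells and natural killer cells. The classical chains, H2-K1 and H2-D1, are highly variable between individuals and made by nearly every nucleated cell. The nonclassical chains vary little, and many have a restricted tissue range. H2-M3 binds peptides that begin with N-formyl methionine, a mark of bacterial proteins. H2-T23 encodes Qa-1, which shows the leader peptides of other class I chains to CD94/NKG2 receptors of natural killer and T cells. H2-Q6 and H2-Q7 belong to the Qa-2 group, and H2-T22 is a ligand for some gamma delta T cell receptors. Cd1d1 shows lipids to natural killer T cells. Langerhans cells are the antigen-presenting cells of the epidermis, where they sit among keratinocytes and gamma delta T cells.

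The 9 H2 genes lie on chromosome 17 (mouse build GRCm38, GENCODE M21) and Cd1d1 lies on chromosome 3 at positions 86995834 to 86999441. The Q genes sit together, with H2-Q4 at 35379617 to 35385290, H2-Q6 at 35424850 to 35430055 and H2-Q7 at 35439155 to 35443773, all on the plus strand. The T genes follow on the minus strand, with H2-T24 at 36005695 to 36020560, H2-T23 at 36029773 to 36032855 and H2-T22 at 36037128 to 36042747. H2-M5 is at 36984061 to 36989537 (minus), H2-M3 at 37270220 to 37274484 (plus) and H2-M2 at 37480851 to 37483552 (minus). All 10 are annotated as protein coding.

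Bases upstream of 4 of the start sites are shown because H2-Q6 and H2-Q7 varied alike across cells and H2-M2 and H2-M5 shared their highest cell type. Each run holds the 250 bases before the gene's start in the RefSeq table (GRCm38.p6), 5′ to 3′ on the gene's strand. Capitals mark matches of 5 letter patterns on either strand. The first, GAAANNGAAA, is a core of the interferon-stimulated response element, CCAAT is the core of the Y box, and the pattern TGACG is a part of the cyclic AMP response element. The patterns GAANNGAAA (a looser form of the first) and TGATGAC (letters of the X2 box of class I promoters) were added after the sequences were seen. TGATGAC can share bases with TGACG.
H2-Q6 (chr17:35424600-35424849, plus): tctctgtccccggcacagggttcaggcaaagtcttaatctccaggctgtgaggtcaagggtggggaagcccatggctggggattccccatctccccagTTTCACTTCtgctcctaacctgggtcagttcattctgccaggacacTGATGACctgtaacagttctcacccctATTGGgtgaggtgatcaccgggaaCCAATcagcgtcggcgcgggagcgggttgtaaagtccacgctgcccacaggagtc
H2-Q7 (chr17:35438905-35439154, plus): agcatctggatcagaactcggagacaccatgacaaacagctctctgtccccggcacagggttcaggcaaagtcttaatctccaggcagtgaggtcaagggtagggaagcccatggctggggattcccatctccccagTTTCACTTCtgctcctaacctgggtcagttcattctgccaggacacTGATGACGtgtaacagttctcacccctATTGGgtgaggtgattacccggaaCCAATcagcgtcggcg
H2-M2 (chr17:37483555-37483804, minus): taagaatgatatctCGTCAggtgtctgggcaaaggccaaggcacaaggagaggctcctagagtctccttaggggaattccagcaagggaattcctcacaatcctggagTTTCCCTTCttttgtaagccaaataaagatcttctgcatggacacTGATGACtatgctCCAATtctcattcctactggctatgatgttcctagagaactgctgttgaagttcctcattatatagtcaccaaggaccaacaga
H2-M5 (chr17:36989534-36989783, minus): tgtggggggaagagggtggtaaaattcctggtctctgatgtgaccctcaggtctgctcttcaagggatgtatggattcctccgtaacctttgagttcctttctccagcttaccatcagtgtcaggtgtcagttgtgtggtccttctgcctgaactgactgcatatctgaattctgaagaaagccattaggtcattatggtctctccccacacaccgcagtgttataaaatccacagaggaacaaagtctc

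The H2-M5 window held none of the patterns, while the other 3 windows held TGATGAC as well as GAANNGAAA, and also held CCAAT. The table had windows of 300 bases, 250 before and 50 after the start, for 8 of the 10 genes, without H2-T24 and Cd1d1. TGATGAC was in 6 of the 8 windows (H2-M2, H2-M3, H2-Q4, H2-Q6, H2-Q7 and H2-T22) against 3.23% of all 32851 windows, and GAANNGAAA was in 5 of 8 against 7.52%. GAAANNGAAA was in 2 of 8 (H2-T22 and H2-T23) against 3.44%, CCAAT in 7 of 8 against 37.4%, and TGACG in 5 of 8 against 20.8%. A match describes letters only and shows no binding.

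The libraries were read at the 3′ ends of transcripts. Of the 50-base windows in the last 500 transcript bases, 35.9% in H2-Q6, 33.7% in H2-Q4 and 23.9% in H2-T23 also occurred in another gene, so the counts of these 3 genes are uncertain. The genes sharing most windows were not class I genes: Efr3a for H2-Q6, Gm43321 for H2-Q4 and Rab33b for H2-T23. The share was 6.21% in H2-Q7 (most with H2-Q5), 4.21% in H2-T22 (with H2-T10), 3.55% in H2-M2 and 0 in H2-M3, H2-M5, H2-T24 and Cd1d1. The antisense gene A930015D03Rik overlaps H2-T22, H2-T23 and H2-T24, and Gm11131 overlaps H2-Q4 on the opposite strand. Whether the counting used strand is not given in the sources used here.

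After filtering, 37961 of 40004 barcodes were kept (12399 young, 12621 adult wild-type and 12941 adult Lang-DTA), with median depths of 9823, 8479 and 8569 UMIs per cell. In every cell type all of its own marker genes were at 10 CPM (UMIs of the gene per 1000000 UMIs of the cell type in the library) or more in each library. Cells passing more than 1 of the 7 rules were 294, 299 and 287. They were kept, as the rules allow, and each result that depends on them is given a second time over cells that passed exactly 1 rule. Cells called female by their sex-linked genes were 42.9% and 43.6% in the wild-type libraries and 60.8% in the Lang-DTA library. No more than 50 cell barcodes were shared by any pair of libraries and 0 by all 3. The Langerhans rule took 613 young and 465 adult wild-type cells but 1 adult Lang-DTA cell, so no Lang-DTA value exists for Langerhans cells and the genotype comparison covers 6 cell types. The adult wild-type macrophages were 72 cells. The age comparison (adult over young wild type) and the genotype comparison (adult Lang-DTA over adult wild type) share the adult wild-type library.

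**Figure D1:**
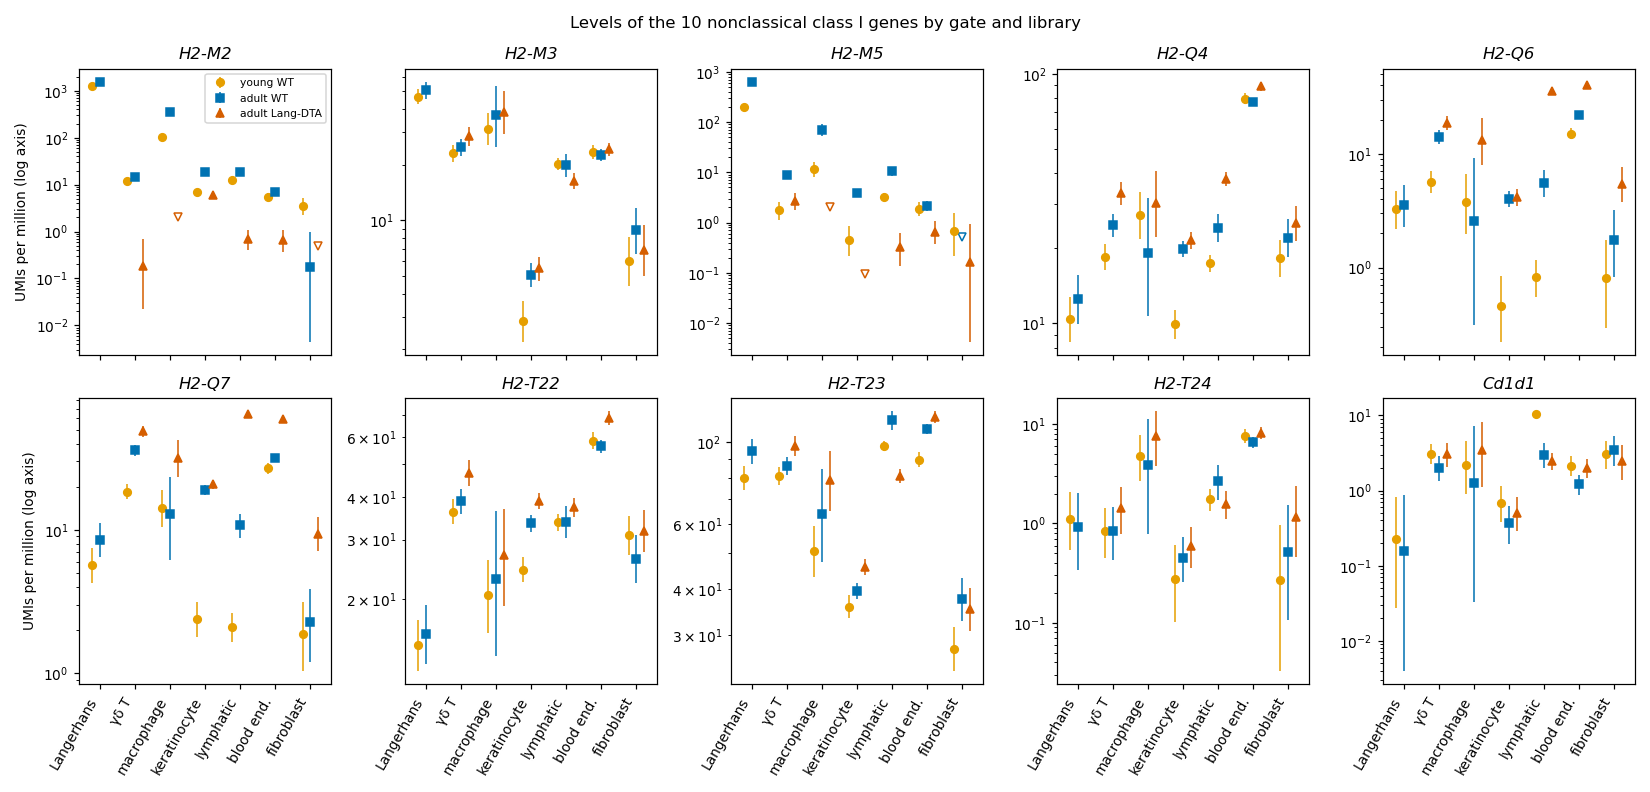
Level of each of the 10 genes (CPM, log axis) in 7 cell types, 1 point per library with its exact 95% Poisson interval. Open down-pointing triangles mark the limit that a count of 0 allows (3 counts). H2-M2 and H2-M5 are highest in Langerhans cells, H2-Q4, H2-T22 and H2-T24 in blood endothelial cells, and Cd1d1 stands at 10.42 CPM in young lymphatic cells.

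Of the 7 cell types, Langerhans cells had the highest levels of H2-M2 and H2-M5. H2-M2 stood at 1242 CPM (interval 1219 to 1265) in young and 1538 CPM (1508 to 1569) in adult Langerhans cells, a log2 ratio of 0.31 (0.27 to 0.35). Langerhans cells had median depths of 13537 (young) and 11894 (adult) UMIs. At least 1 UMI of H2-M2 was found in 96.4% of young and 98.5% of adult Langerhans cells. After each cell was thinned to 2000 UMIs, which left out 3 cells per library, the shares were 81.0% and 88.5%. H2-M2 was therefore detected in nearly all Langerhans cells of both ages and its age ratio stayed under 1.5-fold.

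H2-M5 differed more between the ages. Its level was 204 CPM (194.5 to 213.4) in young and 618 CPM (599.4 to 637.9) in adult Langerhans cells, 3.03-fold higher in the adult (log2 ratio 1.60, interval 1.52 to 1.68). The share of cells with a UMI was 83.0% and 94.6%, and 34.6% and 66.9% after thinning. The median cell had 1.69 H2-M5 UMIs per 10,000 in the young and 5.62 in the adult library. Cells with 5 or more per 10,000 were 9.30% of the young and 53.8% of the adult cells. Cells without a UMI of the division genes Mki67 and Top2a gave 244 and 698 CPM. Among the 9196 genes tested in Langerhans cells, H2-M5 had the 78th highest age ratio. Across every alternative run, its log2 ratio lay between 1.51 and 1.73. Of the 7 members with at least 100 UMIs over both libraries, H2-M5 was the 1 past 1.5-fold, against 12.0% of all genes so tested in these cells. H2-Q7 lay just under that limit, at 1.49-fold on 51 young and 55 adult UMIs.

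**Figure D2:**
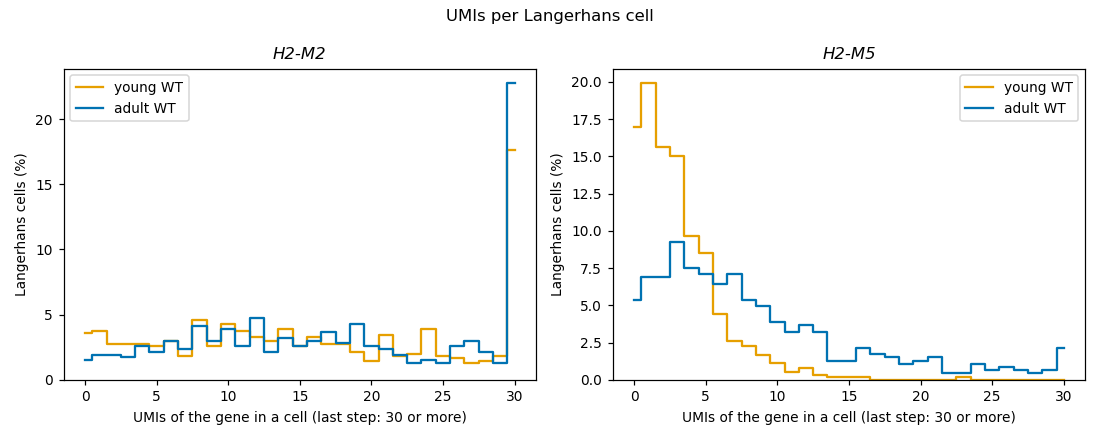
UMIs of H2-M2 (left) and H2-M5 (right) in single Langerhans cells (x axis, UMIs of the gene in a cell, with the last step holding 30 or more) against the share of cells (y axis, percent) in the young and adult wild-type libraries. The H2-M5 line of the adult cells lies to the right of the young line, where 83.0% of cells had a UMI against 94.6% in the adult.

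Joint detection of H2-M2 and H2-M5 was counted over the 546 and 411 Langerhans cells that passed no other rule, of which 529 and 405 had an H2-M2 UMI. The cells without one were therefore few. In the young library 84.9% of Langerhans cells with an H2-M2 UMI also had an H2-M5 UMI, against 58.8% of those without. In the adult the shares were 94.8% and 66.7%. Cells were not matched for depth in this count. Cells passing the Langerhans rule alone held 87.4% (young) and 83.6% (adult) of all H2-M2 UMIs of the kept cells, and 87.1% and 85.9% of all H2-M5 UMIs.

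In macrophages, gamma delta T cells and lymphatic cells most H2-M2 of the wild-type libraries lay in cells that also passed another rule, and it is given beside Cd207, the gene that selects Langerhans cells. In macrophages H2-M2 was at 104 CPM in young, 361 in adult wild type and a count of 0 in Lang-DTA, at least 174-fold lower with 3 counts over the group put in for 0. Cd207 there was at 277, 467 and 0 CPM. Among cells that passed the macrophage rule and no other, H2-M2 was at 3.03, 1.93 and 0 CPM. H2-M2 in gamma delta T cells was at 11.9, 14.2 and 0.189 CPM beside 32.2, 44.6 and 3.49 CPM of Cd207, and at 1.85, 0.574 and 0 CPM over cells of exactly 1 rule. In lymphatic endothelial cells H2-M2 was at 12.4, 18.5 and 0.680 CPM beside 28.15, 31.44 and 0.04 CPM of Cd207. H2-M2 there was at 0.440, 0.227 and 0.645 CPM over cells of exactly 1 rule. Over cells of exactly 1 rule the genotype ratio in lymphatic cells turned, from -4.76 to 1.5, on 2 and 15 UMIs, and in macrophages the age ratio turned, from 1.79 to -0.65, on 8 and 1 UMIs.

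H2-M2 was also found in keratinocytes that passed no other rule. The level over all keratinocytes was 6.86 CPM in young, 18.4 in adult wild type and 6.05 in Lang-DTA keratinocytes, and 4.96, 10.9 and 6.47 CPM over cells of exactly 1 rule. There, 53 of 1266, 134 of 2339 and 84 of 2593 keratinocytes had a UMI (4.19%, 5.73% and 3.24%). In fibroblasts, which had lower H2-M2, 0 of 495 Lang-DTA cells had a UMI, which allows a share of cells with a UMI of up to 0.606% and does not limit the share of cells expressing the gene, at a median depth of 11241 UMIs against 11105 in Lang-DTA keratinocytes. The age ratio was 1.42 on the log2 scale and 1.14 over cells of exactly 1 rule. The genotype ratio was -1.60, and -0.76 over cells of exactly 1 rule. Cd207 over all keratinocytes was at 5.85, 17.5 and 0 CPM, so that the Lang-DTA keratinocytes held 193 UMIs of H2-M2 beside none of Cd207. In the wild-type keratinocytes the part of Langerhans RNA was not tested. In Lang-DTA, 351 of 605 H2-M2 UMIs lay in cells outside the 7 rules with Ccr7 and Fscn1 UMIs, which had no Cd207 UMI. The part of RNA from those cells in the Lang-DTA keratinocytes was not tested either.

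H2-M5 outside Langerhans cells was low. Keratinocytes had 0.460 CPM in young and 3.90 CPM in adult wild type, and a count of 0 in Lang-DTA, at least 41.5-fold lower with 3 counts over the group put in for 0. Over keratinocytes of exactly 1 rule, 1, 6 and 0 cells had a UMI. The keratinocyte age ratio was 3.08. Over cells called female it rested on 6 adult and 0 young UMIs, too few for a call. With the 0 put at 3 counts it was 0.13 there, a lower limit and not an estimate. Lymphatic cells had 3.22, 10.41 and 0.320 CPM, and 0.498, 0.341 and 0.344 CPM over cells of exactly 1 rule, so that neither the age nor the genotype ratio held there. Macrophages had 11.7, 69.1 and 0 CPM, and a count of 0 in all 3 libraries over cells of exactly 1 rule. Gamma delta T cells had 1.74, 8.77 and 2.64 CPM, and 1.11, 2.79 and 3.17 CPM over cells of exactly 1 rule, in which 15, 32 and 23 cells had a UMI. Its age ratio was 2.33 and lay between 1.32 and 2.70 over the alternatives. The lower Lang-DTA value in gamma delta T cells therefore did not hold over cells of exactly 1 rule. Of the 56 H2-M5 UMIs of all kept Lang-DTA cells, 27 lay in gamma delta T cells of exactly 1 rule.

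H2-M3 was highest in Langerhans cells at 46.7 and 50.5 CPM, followed by macrophages at 31.3, 37.1 and 38.7 CPM in young, adult wild type and Lang-DTA. Gamma delta T cells (23.02, 24.9 and 28.5 CPM) and blood endothelial cells (23.4, 22.6 and 24.2 CPM) came next. Lymphatic cells had 20.2, 19.8 and 16.4 CPM. Fibroblasts had 6.04, 8.85 and 6.93 CPM and keratinocytes 2.85, 5.05 and 5.49 CPM. Only in keratinocytes did its age ratio pass 1.5-fold (log2 0.82, 0.40 to 1.27), and it was 0.55 over cells called male and 0.47 after thinning, which ends the call.

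Keratinocytes had the most members past 1.5-fold with age. Of the 8 members tested there, 6 were higher in the adult by more than 1.5-fold (H2-M2, H2-M3, H2-M5, H2-Q4, H2-Q6 and H2-Q7) and 0 were lower, against 11.2% of all genes past 1.5-fold in either direction. The median log2 ratio of the 8 was 1.21, against -0.10 over all genes. Young UMIs were 62 for H2-M3, 10 for H2-M5, 10 for H2-Q6 and 52 for H2-Q7. These genes met the minimum of 100 UMIs only together with the adult library, where they were higher. Over cells of exactly 1 rule H2-M5 rested on 1 young and 8 adult UMIs. The H2-M3 call ended over cells called male and after thinning. H2-Q7 was at 2.39 CPM (1.79 to 3.14) in young and 18.9 CPM in adult wild type, 7.91-fold higher (log2 2.98, 2.57 to 3.42). It was at 20.8 CPM in Lang-DTA, a genotype ratio of 0.13. H2-Q6 was at 0.460, 4.02 and 4.17 CPM, an age ratio of 3.12 (2.20 to 4.22). H2-Q4 was at 9.94, 19.9 and 21.5 CPM (age 1.0, 0.78 to 1.23), with 0.58 over cells called male and 1.53 over cells called female.

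The share of keratinocytes with an H2-Q7 UMI was 1.93%, 9.74% and 11.4%, and 0.376%, 2.53% and 3.11% after thinning. The higher adult level held over the range of alternatives, from 2.70 to 4.82 for H2-Q7 and from 2.46 to 4.03 for H2-Q6. Both upper ends came from stricter rules and rest on few young UMIs. H2-Q7 had 9 young and 420 adult UMIs there. H2-Q6 had 0 young and 81 adult UMIs, so 4.03, with the 0 put at 3 counts, is a lower limit and not an estimate.

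Lymphatic endothelial cells carried the largest genotype differences of the Q genes. H2-Q7 was at 2.10 CPM in young, 10.7 in adult wild type and 64.5 in Lang-DTA cells. The adult wild-type value was 5.10-fold above the young (log2 2.35, 1.91 to 2.79), and the Lang-DTA value was 6.02-fold above the adult wild type (log2 2.59, 2.30 to 2.89). H2-Q6 was at 0.818, 5.51 and 35.9 CPM, a genotype ratio of 2.70 (2.30 to 3.13). H2-Q4 was at 17.4, 24.1 and 37.9 CPM, a genotype ratio of 0.65 (0.45 to 0.87) that was 0.16 over cells called male and is thus not past 1.5-fold there.

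The share of lymphatic cells with an H2-Q7 UMI was 1.38%, 4.16% and 15.5%, and 0.353%, 1.91% and 7.38% after thinning, which left out 105, 95 and 50 cells. In Lang-DTA, 97 cells with 5 or more H2-Q7 UMIs held 70.6% of the UMIs, and 1 cell held 44. In the adult wild type 3 such cells held 16.2%.

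Genotype ratios in lymphatic cells are read against a broad background. In these cells 40.2% of all genes tested were past 1.5-fold between Lang-DTA and adult wild type, and 5 of 8 members were (3 higher, 2 lower). Of the 5, H2-M2, H2-M5 and H2-Q6 met the minimum of 100 UMIs only through the library where they were higher. H2-Q6 had 54 adult wild-type and 896 Lang-DTA UMIs. The 6 lymphatic markers summed to 9675 CPM in young, 13340 in adult wild type and 5552 in Lang-DTA cells of the lymphatic rule, and their part in the ratios was not tested. The median depth was 9496 UMIs in Lang-DTA and 5171 in adult wild-type lymphatic cells. Cells with a UMI of Gdf15 or Gpnmb, genes of a stress response and of lysosomes, were 65.8% of Lang-DTA lymphatic cells, 26.3% of adult wild-type and 31.4% of young ones. In cells with such a UMI H2-Q7 was at 1.71, 9.38 and 79.4 CPM, and in cells without at 2.33, 11.3 and 22.9 CPM. The genotype ratio was 3.08 with and 1.02 without. H2-Q6 gave 3.07 with and 0.89 without. H2-Q4 gave 0.33 without, which is not past 1.5-fold. This split was added after seeing the data, and its part in the result was not tested further.

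**Figure D3:**
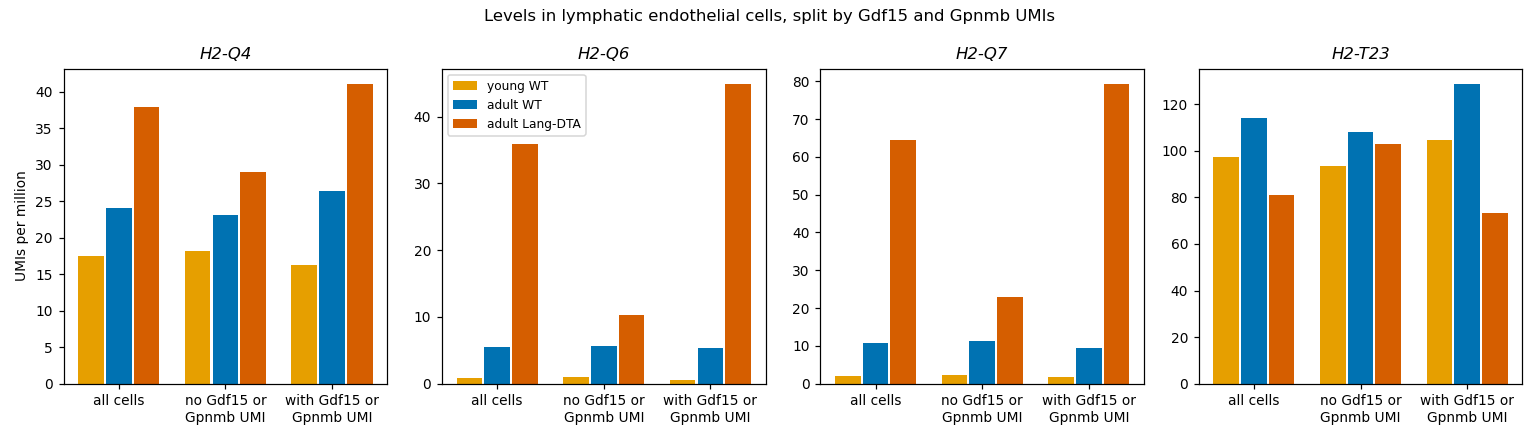
CPM of H2-Q4, H2-Q6, H2-Q7 and H2-T23 in lymphatic endothelial cells (y axes from 0), over all cells and over those without and with a UMI of Gdf15 or Gpnmb, with 1 bar per library and no error bars. H2-Q7 reaches 79.4 CPM in Lang-DTA cells with such a UMI and 22.9 CPM in those without, while H2-T23 is lowest in Lang-DTA cells with such a UMI, at 73.1 CPM.

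Blood endothelial cells had the highest H2-Q4 among the 7 cell types, at 79.5, 77.4 and 89.2 CPM. No member was past 1.5-fold there with age (0 of 9 tested, against 12.2% of all genes). H2-Q6 lay just under that limit, at 1.48-fold (log2 0.56, 0.37 to 0.76). H2-Q6 was at 15.01, 22.2 and 40.5 CPM and H2-Q7 at 26.8, 31.9 and 59.6 CPM. Their genotype ratios were 0.87 and 0.90 (0.79 to 1.02 for H2-Q7). Over cells called male the ratios were 0.18 and 0.37, which ends both calls, and over cells called female 0.91 and 0.97. The genotype comparison had 3 of 8 members past 1.5-fold in these cells, against 7.01% of all genes. The third was H2-M2, at 6.94 CPM in adult wild type and 0.652 CPM in Lang-DTA, and 0.296 and 0.712 CPM over cells of exactly 1 rule.

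In gamma delta T cells H2-Q6 and H2-Q7 were higher in the adult. H2-Q7 was at 18.5, 36.0 and 48.6 CPM (age ratio 0.96) and H2-Q6 at 5.67, 14.1 and 18.8 CPM (age ratio 1.31). H2-Q7 gave 0.34 over cells called male and 1.57 over cells called female, so the call ends in cells called male. H2-Q4 was at 18.5, 24.7 and 33.3 CPM. The age comparison had 3 of 8 members past 1.5-fold, all higher, against 14.1% of all genes, and the genotype comparison 2 of 8, both lower (H2-M2 and H2-M5), against 8.55%.

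Macrophages had H2-Q7 at 14.2, 12.8 and 31.8 CPM and fibroblasts at 1.88, 2.26 and 9.41 CPM, each on few UMIs. In macrophages 1 of 4 members was past 1.5-fold with age and 1 of 2 with genotype (both H2-M2), against 15.6% and 9.99%. Fibroblasts had 0 of 3 in both comparisons, against 14.6% and 7.90%.

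In keratinocytes, lymphatic and blood endothelial cells of exactly 1 rule, an H2-Q7 UMI was more frequent in cells with an H2-Q6 UMI than in cells without, in each library. In wild-type macrophages and fibroblasts, with 1 to 5 H2-Q6-positive cells per library, no such cell had an H2-Q7 UMI. In adult wild-type keratinocytes 84.4% of cells with an H2-Q6 UMI had an H2-Q7 UMI, against 6.54% of those without. In Lang-DTA lymphatic cells the shares were 74.5% and 7.82%, and in Lang-DTA blood endothelial cells 57.2% and 17.5%. Cells were not matched for depth, and its part in these shares was not tested. An H2-T23 UMI was likewise more frequent with an H2-T22 UMI than without. In adult wild-type blood endothelial cells those shares were 66.9% and 44.9%.

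The T genes differed little with age or genotype, and none passed 1.5-fold over all cells of any type tested. H2-T23 was at 89.4, 108.5 and 116.9 CPM in blood endothelial cells, 97.5, 114 and 81.0 CPM in lymphatic cells, and 80.7, 86.1 and 97.5 CPM in the Trdv4 cells. In Langerhans cells it stood at 80.1 and 94.2 CPM. The ranges of these 4 types overlapped, so their order is not resolved. Keratinocytes (35.9, 39.6 and 46.0 CPM) and fibroblasts (27.6, 37.7 and 35.3 CPM) had lower levels. In lymphatic cells its genotype ratio was -0.50 (-0.60 to -0.39), with -0.82 in cells with a Gdf15 or Gpnmb UMI and -0.07 in those without.

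Among the 7 cell types, H2-T22 was highest in blood endothelial cells, at 58.7, 56.5 and 68.6 CPM. It was lowest in Langerhans cells, at 14.7 and 15.8 CPM. H2-T24 was low, at 7.60, 6.58 and 8.19 CPM in blood endothelial cells, which held 42.8%, 71.0% and 56.3% of its UMIs over cells of exactly 1 rule. Those shares also follow the numbers of sorted cells and were not compared. Macrophages overlapped with blood endothelial cells in level, at 4.75, 3.84 and 7.60 CPM.

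Cd1d1 was highest in young lymphatic cells and lower there in the adult. The level was 10.42 CPM (9.40 to 11.5) in young, 2.96 CPM (1.98 to 4.25) in adult wild type and 2.48 CPM (1.90 to 3.18) in Lang-DTA lymphatic cells. The adult wild-type value was 3.52-fold lower (log2 ratio -1.82, -2.41 to -1.27), and lay between -1.90 and -1.61 over the alternatives. A UMI was found in 8.20%, 1.73% and 2.32% of cells, and in 1.97%, 0.681% and 0.432% after thinning. The others of the 7 cell types had at most 3.47 CPM, and Langerhans cells had 0.224 and 0.155 CPM. Cells outside the 7 rules are not part of this ranking, and Ccr7 cells among them reached 113.8 CPM in adult wild type. Lymphatic cells of exactly 1 rule held 63.3% of all Cd1d1 UMIs in young, 13.5% in adult wild type and 24% in Lang-DTA. The lymphatic rule took 4072, 1563 and 2367 cells in turn. These shares follow such cell numbers, which the sort set, as well as the level, and were not compared.

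**Figure D4:**
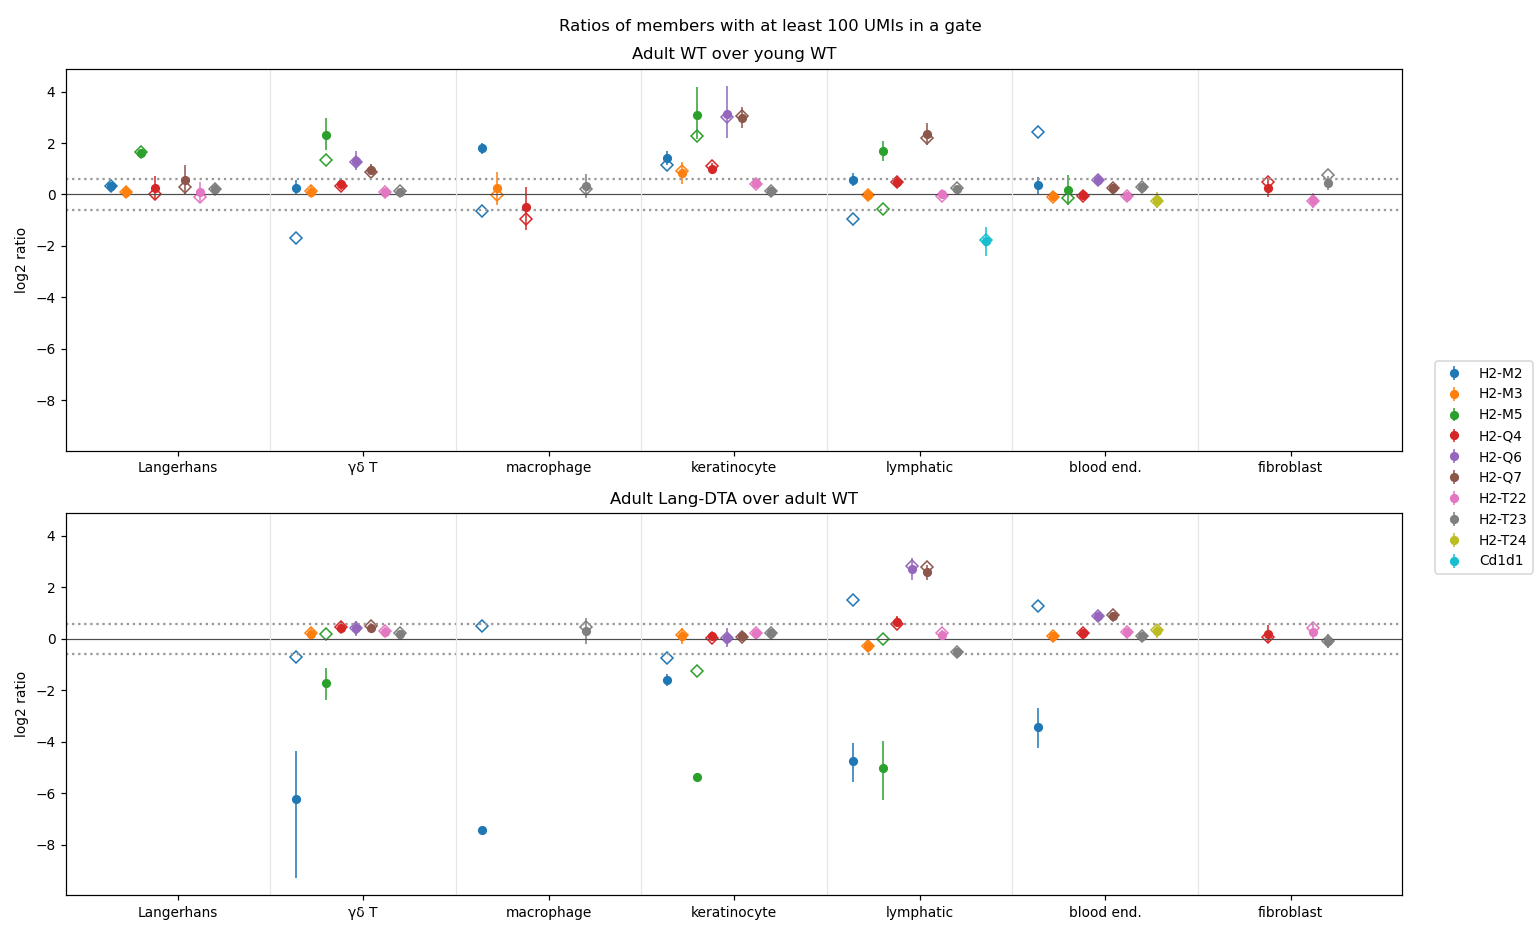
Log2 ratio of each member by cell type for age (adult over young wild type) and genotype (adult Lang-DTA over adult wild type). Filled circles with exact 95% intervals use all cells of a rule, open diamonds cells of exactly 1 rule, and dotted lines mark 1.5-fold. H2-Q6 and H2-Q7 lie above the line in keratinocytes with age and in lymphatic cells with genotype.

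Over all pairs of a member and a cell type, 13 of 47 were higher and 1 was lower with age, against 6.08% and 7.52% of all gene and cell type pairs. For genotype, 5 of 37 were higher and 8 were lower, against 8.31% and 5.09%. In both comparisons several of these pairs met the minimum of 100 UMIs only through the library where they were higher. H2-M5 in keratinocytes, for example, had 139 adult wild-type and 0 Lang-DTA UMIs. The shares over all genes use the same minimum. Over cells of exactly 1 rule the counts were 10 higher and 1 lower with age, and 5 higher and 1 lower with genotype. All 8 lower genotype pairs were those of H2-M2 and H2-M5. In lymphatic cells 3 of 8 members were past 1.5-fold with age (2 higher, 1 lower), against 16.4% of all genes, and in keratinocytes 2 of 8 with genotype, both lower, against 4.11%.

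The classical chains and the light chain were read beside the set. B2m was at 197, 458 and 557 CPM in keratinocytes and at 253, 457 and 1184 CPM in lymphatic cells, with an age ratio of 1.22 and a genotype ratio of 1.37 in turn. H2-K1 was at 158, 337 and 426 CPM in keratinocytes (age 1.09) and at 160, 244 and 427 CPM in lymphatic cells (genotype 0.81). H2-D1 was at 148, 250 and 329 CPM in keratinocytes (age 0.75) and at 266, 332 and 552 CPM in lymphatic cells (genotype 0.73). All 3 were therefore past 1.5-fold with age in keratinocytes and with genotype in lymphatic cells, where 11.2% and 40.2% of all genes passed. With age in lymphatic cells B2m (0.86) and H2-K1 (0.61) passed and H2-D1 (0.32) did not, against 16.4% of all genes.

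Of 19 genes of class I loading and its regulation, 4 were higher and 0 lower with age in keratinocytes (11.2% of all genes passed there), led by the immunoproteasome subunits Psmb8 (1.74) and Psmb9 (1.36). Nlrc5, the transactivator of class I genes, had 23.5 CPM in young and 55 CPM in adult wild-type keratinocytes. In lymphatic cells Nlrc5 was at 6.14, 20.8 and 20.9 CPM in young, adult wild type and Lang-DTA (age 1.76, genotype 0.01). With genotype in lymphatic cells 3 were higher, led by the peptide transporter Tap1 (1.0), and 2 were lower, among them Irf1 (-1.09), where 40.2% of all genes passed. In blood endothelial cells 0 of 19 passed with genotype, against 7.01% of all genes. The list's median log2 ratio was 0.07 in keratinocytes with age and 0.13 in lymphatic cells with genotype, against -0.10 and 0.06 over all genes.

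Of the 18 interferon response genes, 13 were tested in keratinocytes with age, and 10 were higher and 0 lower, where 11.2% of all genes passed in either direction. Their median log2 ratio was 1.12 against -0.10 over all genes. Gbp2 (3.36) and Iigp1 (2.95) led. In lymphatic cells with age 11 of 18 were higher and 1 lower, against 16.4% of all genes. With genotype 7 were higher, led by Ifit2 (1.77) and Ifit1 (1.62), and 3 were lower, among them Iigp1 (-0.86), against 40.2% of all genes. The list's medians in lymphatic cells were 0.71 with age and 0.31 with genotype. In blood endothelial cells 0 of 18 passed with genotype, against 7.01% of all genes. The highest ratios there were 0.57 (Ifit2) and 0.56 (Ifit3), close to the limit.

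Of the other nonclassical and class I-like genes, 7 were tested in lymphatic cells with genotype. Of these, 2 were higher and 3 lower, against 40.2% of all genes. Ulbp1, a ligand of the activating receptor NKG2D, stood at 3.37 CPM in adult wild type and 33.2 CPM in Lang-DTA (log2 3.30), Raet1e had a ratio of 1.14, and Mill2 was lowest at -1.69. The list's median was -0.33 against 0.06 over all genes. In keratinocytes with age 1 of 7 was higher, Mill1 at 1.80, against 11.2% of all genes. Of the receptors of these molecules, 5 were tested in gamma delta T cells. There 0 passed in either comparison, against 14.1% (age) and 8.55% (genotype) of all genes. The receptor levels were 1387, 1519 and 1519 CPM summed over all 10 listed genes, tested or not. In lymphatic cells all 3 tested, Klrd1, Klrk1 and Hcst, which are genes of T and natural killer cells, were higher with age and lower with genotype. Of all genes, 16.4% (age) and 40.2% (genotype) passed in these cells. Klrd1 stood at 5.48, 12.5 and 5.52 CPM there, beside 138.7, 199.3 and 117.8 CPM summed over the 7 markers of gamma delta T cells, whose part in this was not tested. Of the lipid-loading genes, 6 were tested in lymphatic cells with age, and 1 passed, Ctss, lower at -1.33, against 16.4% of all genes. With genotype Mttp was higher (0.66) and Gm2a lower (-0.86), against 40.2% of all genes. The medians of the 6 were -0.30 and -0.07.

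The genes most like each member over 20 profiles of a cell type in a library were found by Pearson's r of log2(CPM + 1) among 16542 genes. These profiles share libraries, so r is a description. H2-M2 was nearest to Cd207 (r = 0.962), which selected the cells, then P2rx2 (0.946), and H2-M5 to P2rx2 (0.959) and Fam166b (0.948). H2-M3 was nearest to Disc1 (0.955) and H2-Q4 to Lpar6 (0.942). H2-Q6 was nearest to Cd274 (0.827) and Tap2 (0.823), and H2-Q7 to H2-K1 (0.847). H2-T22 was nearest to Arid5b (0.904), H2-T23 to Exoc6 (0.929) and Cd1d1 to Tgfbr2 (0.889). Between members, H2-M2 and H2-M5 had r = 0.935 and H2-Q6 and H2-Q7 r = 0.931.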

How the data were processed

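Cells of ear skin from 3 conditions were measured in 1 library each with 10x Genomics 3′ chemistry. The authors deposited raw UMI counts per gene and cell, made with Cell Ranger 8.0.1 per the file headers (8.01 per the submitters' processing notes) on GRCm38 per those notes. Which annotation release was used, whether intronic reads or strand were counted and whether free RNA was subtracted is not given in the sources used here.

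Barcodes were kept with 500 genes or more, 1000 UMIs or more and no more than 10% of UMIs from mitochondrial genes. No doublet caller was run. Leaving out cells that passed more than 1 of the 7 rules was the alternative for cells with markers of several types. Libraries shared 47 (both wild types), 50 (young and Lang-DTA) and 39 (adult wild type and Lang-DTA) cell barcodes. Counts were summed per cell type and library and given as CPM, with cell types under 50 cells left out. A ratio was called past 1.5-fold where the gene had at least 100 UMIs over both libraries, in place of a test, which 1 library per condition does not allow. Intervals are exact (Poisson, Clopper-Pearson) at 95%. A count of 0 was put at 3. Python 3.11.15, numpy 2.4.6, scipy 1.17.1, pandas 2.3.3 and matplotlib 3.10.9 were used, and the ratio code was tested on simulated data.

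The genes and gene lists were chosen with earlier results of these data known. Named were all 10 members, B2m, H2-K1 and H2-D1, and at most the 2 largest called genes per direction of each list. Nlrc5 and the third receptor gene were added after their values were seen. Of the 3 genes most alike by r the nearest was named. For H2-M2, H2-M5 and H2-Q6, but not for the other members, the next nearest was named as well. A gene that this choice would name is not reported here. Alternatives were the cell filter, the rules' strictness, exactly 1 rule, sex, thinning, scaling and the UMI minimum. Splits by Mki67 or Top2a, by Gdf15 or Gpnmb and by Lyve1 were added after seeing the data. An imiquimod condition named in the protocols is not analysed here, and protein identity between the members was not computed.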

Additional observations from a re-analysis of the deposited data

Results flagged for a closer look

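Cells outside the 7 rules with at least 2 UMIs of Ccr7 and at least 1 of Fscn1, genes of mature dendritic cells, stood above the 7 cell types of the same library for some members. A value was singled out where the lower limit of its interval was at least 1.5 times the highest of those cell types, which held for H2-Q6 and H2-Q7 in all 3 libraries, for H2-M2 and H2-T23 in Lang-DTA, and for Cd1d1 in adult wild type. The Ccr7 cells numbered 17, 7 and 35 in the young, adult wild-type and Lang-DTA libraries, so the values rest on few cells and none was tested. H2-M2 stood at 757 CPM (679.9 to 840.6) in Lang-DTA, where 1 cell passed the Langerhans rule. It stood at 465 in young and 341 in adult wild type, below the Langerhans cells of those libraries. The 35 Lang-DTA cells held 58.0% of the library's H2-M2 UMIs. H2-M5 was at a count of 0 in all 3 libraries. H2-Q6 stood at 123.9, 94.8 and 181.2 CPM and H2-Q7 at 216.8, 265.4 and 429.2 CPM. H2-T23 stood at 228.6 CPM in Lang-DTA. Cd1d1 stood at 113.8 CPM in adult wild type, on 12 UMIs in 2 of 7 cells.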

How the results depend on the processing

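Of the 27 pairs of a member and a cell type past 1.5-fold, 27 stayed past it with no filter on cells, with cells weighted equally and with median-of-ratios scaling. The number was 26 with stricter rules, 25 after thinning to 2000 UMIs and 20 over cells of exactly 1 rule, and 18 and 21 of 25 over cells called male and female. These counts did not ask again for 100 UMIs. H2-M5 in keratinocytes with genotype thus stayed over cells of exactly 1 rule on 0 and 8 UMIs, with the 0 put at 3. The counts of higher and lower pairs that follow took all pairs anew with the minimum of 100 UMIs, except where the minimum was changed. The 13 higher pairs of the age comparison became 5 over cells called male and 6 after thinning. They became 16 with median-of-ratios scaling, 19 with no minimum of UMIs and 16 with a minimum of 30. The 1 lower pair became 2 with stricter rules, 3 over cells called male, 2 over cells called female, 0 after thinning, 6 with no minimum of UMIs and 3 with a minimum of 30. The 5 higher pairs of the genotype comparison became 3 over cells called male, 16 with no minimum and 10 with a minimum of 30. The 8 lower pairs became 1 over cells of exactly 1 rule, 5 with stricter rules, 4 over cells called male, 1 over cells called female, 5 without cells holding Mki67 or Top2a and 1 after thinning. Thinning and the sex split leave fewer pairs with 100 UMIs.

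Reversed values were confined to H2-M2 and H2-M5. With age, H2-M2 in macrophages gave -0.65 over cells of exactly 1 rule and -0.71 with stricter rules, and H2-M5 in lymphatic cells gave -0.55 and, over cells called female, -0.32. With genotype, cells of exactly 1 rule gave 1.5 for H2-M2 in lymphatic and 1.27 in blood endothelial cells. For H2-M5 they gave 0.18 in gamma delta T and 0.01 in lymphatic cells. For H2-M2 in macrophages they gave 0.51, on 0 Lang-DTA UMIs and 1 adult wild-type UMI. That value comes from the count put in for 0, which is above the 1 UMI seen, so it shows no reversal. H2-M5 in gamma delta T cells gave 0.52 over cells called female and 0.01 after thinning, and H2-M2 in blood endothelial cells 2.41 over cells called female. The cause was not tested. Of 200 shares of cells with a UMI, 184 fell below their interval after thinning and 31 over cells of exactly 1 rule. No paired analysis was possible because each condition had 1 library. Pairs under 100 UMIs are limited by depth.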

Other observations

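Cells with a Ptprc UMI (CD45, a gene of blood-derived cells) that passed none of the 7 rules and were not Ccr7 cells numbered 819, 672 and 501 in the young, adult wild-type and Lang-DTA libraries. H2-Q7 stood at 50.6, 172.8 and 160.3 CPM in them and H2-Q6 at 12.6, 48.1 and 55.1 CPM. Their make-up was not resolved, so the values of the 3 libraries are given without a comparison.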
